A study of Mus musculus with 2 samples.

Results

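Matrix proteases and their inhibitors are 72 of the 21722 genes listed in the deposited counts of mouse liver non-parenchymal cells (NPCs). The members are all genes whose symbols are Mmp, Adam or Adamts followed by a number and, for Mmp and Adam, an optional letter, or Timp or Adamtsl followed by 1 digit. They comprise 21 matrix metalloproteinases (MMPs), 4 tissue inhibitors of metalloproteinases (TIMPs), 23 ADAMs, 19 ADAMTS proteases and 5 ADAMTS-like genes. The normal library listed 70 of them, the fibrosis library 71, and 69 were in both. The annotation of the same genome build holds 84 symbols of these forms, and the 12 others were not listed in either library.

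The NPCs came from 2 male C57BL/6 mice, each 8 weeks old. One received olive oil (normal) and the other CCl4 (fibrosis), a toxin of hepatocytes that causes liver scarring, by i.p. injection 2 times a week over 6 weeks. Both livers were perfused with collagenase and depleted of hepatocytes, and droplet 3′ sequencing counted unique molecular identifiers (UMIs), each standing for 1 captured RNA molecule. Each group is 1 library from 1 mouse, so no test between the groups was possible, the treatment and the mouse cannot be told apart, and every interval given is a 95% interval that covers counting error only. The libraries held 8130 and 6437 cells, with medians of 4144.5 and 5619 UMIs, of which 7471 and 6132 passed the filters, and 15 cell barcodes occurred in both.

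MMPs are secreted or membrane-bound zinc proteases that cut collagens, gelatin and other matrix proteins, and TIMPs block them. ADAMs are membrane proteins, of which some release growth factors, cytokines and receptors from the cell surface and others have no active protease site. ADAMTS enzymes are secreted and cut proteoglycans, procollagens or other matrix proteins, and the ADAMTS-like proteins share their domains without the protease part. In liver scarring, stellate cells, fibroblasts and macrophages are known sources of both proteases and TIMPs.

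Cells of each library were clustered separately, and 18 classes in each were named from marker genes, with "-like" as a reminder that names were rebuilt from the counts. The named classes held 89.9% of the normal and 83.6% of the fibrosis cells. They include liver sinusoidal endothelial cells (LSECs), endothelium of larger vessels, hepatic stellate cells and myofibroblasts (HSC/MF), portal fibroblasts (PFs), mesothelial cells, Kupffer cells and other macrophages. The mesenchymal classes were small, with 62 and 144 HSC/MF-like, 43 and 60 PF-like and 44 and 48 mesothelial-like cells in normal and fibrosis. All 15 measured HSC/MF markers were raised in the HSC/MF-like class of each library, with 1 of 13 PF markers and 2 of 7 smooth muscle markers in normal and 4 of 13 and 3 of 7 in fibrosis. In PF-like cells 12 of 13 PF markers and 3 of 7 smooth muscle markers were raised in normal, but 6 of 13 and 7 of 7 in fibrosis, so the PF-like classes of the libraries are not alike in their markers. In the fibrosis library a further 101 cycling mesenchymal cells, 133 mesenchymal cells with endothelial markers and 58 with macrophage markers were left unnamed, and in normal 58 mesenchymal cells with endothelial markers.

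Levels below are UMIs of a gene per 10000 UMIs of all genes in a class. A class is said to carry a gene where it has at least 30 cells and 10 UMIs of the gene and where the lower bound of its level is over 3 times the median level over the named classes. By that rule 45 members were carried by at least 1 normal class and 40 by a fibrosis class, with 39 in both. The same held of 32.4% of all genes listed in the normal library and 28.2% of those listed in fibrosis. The carried members were 15 and 14 MMPs, 3 and 3 TIMPs, 9 and 6 ADAMs, 13 and 12 ADAMTS genes and 5 and 5 ADAMTS-like genes. Of the 39 members carried in both libraries, 23 had their highest level in the same class. A single class carried 16 members in normal and 11 in fibrosis. Shares over all genes were not counted for a shared highest class or a single carrier, so these counts have no background.

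The mesenchymal classes, which are PF-like, HSC/MF-like and mesothelial-like cells, carried 23 members in normal and 25 in fibrosis, and 9 and 17 of these were carried by no other class. Of all listed genes, 8.03% in normal and 8.47% in fibrosis were carried by a mesenchymal class and 2.52% and 4.33% by no other class. PF-like cells carried 18 and 21 members (3.98% and 5.17% of all genes), HSC/MF-like cells 15 and 21 (3.41% and 4.74%), and mesothelial-like cells 8 and 11 (4.56% and 4.13%). LSEC-like cells carried 10 in normal and 3 in fibrosis (5.76% and 3.17% of all genes), cholangiocyte-like cells 11 and 8 (8.28% and 6.46%), and vessel endothelial-like cells 10 and 5 (5.85% and 3.18%). A gene that is detected in every class of a library has a higher median, so a lower count of carriers does not by itself mean a lower level.

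**Figure D1:**
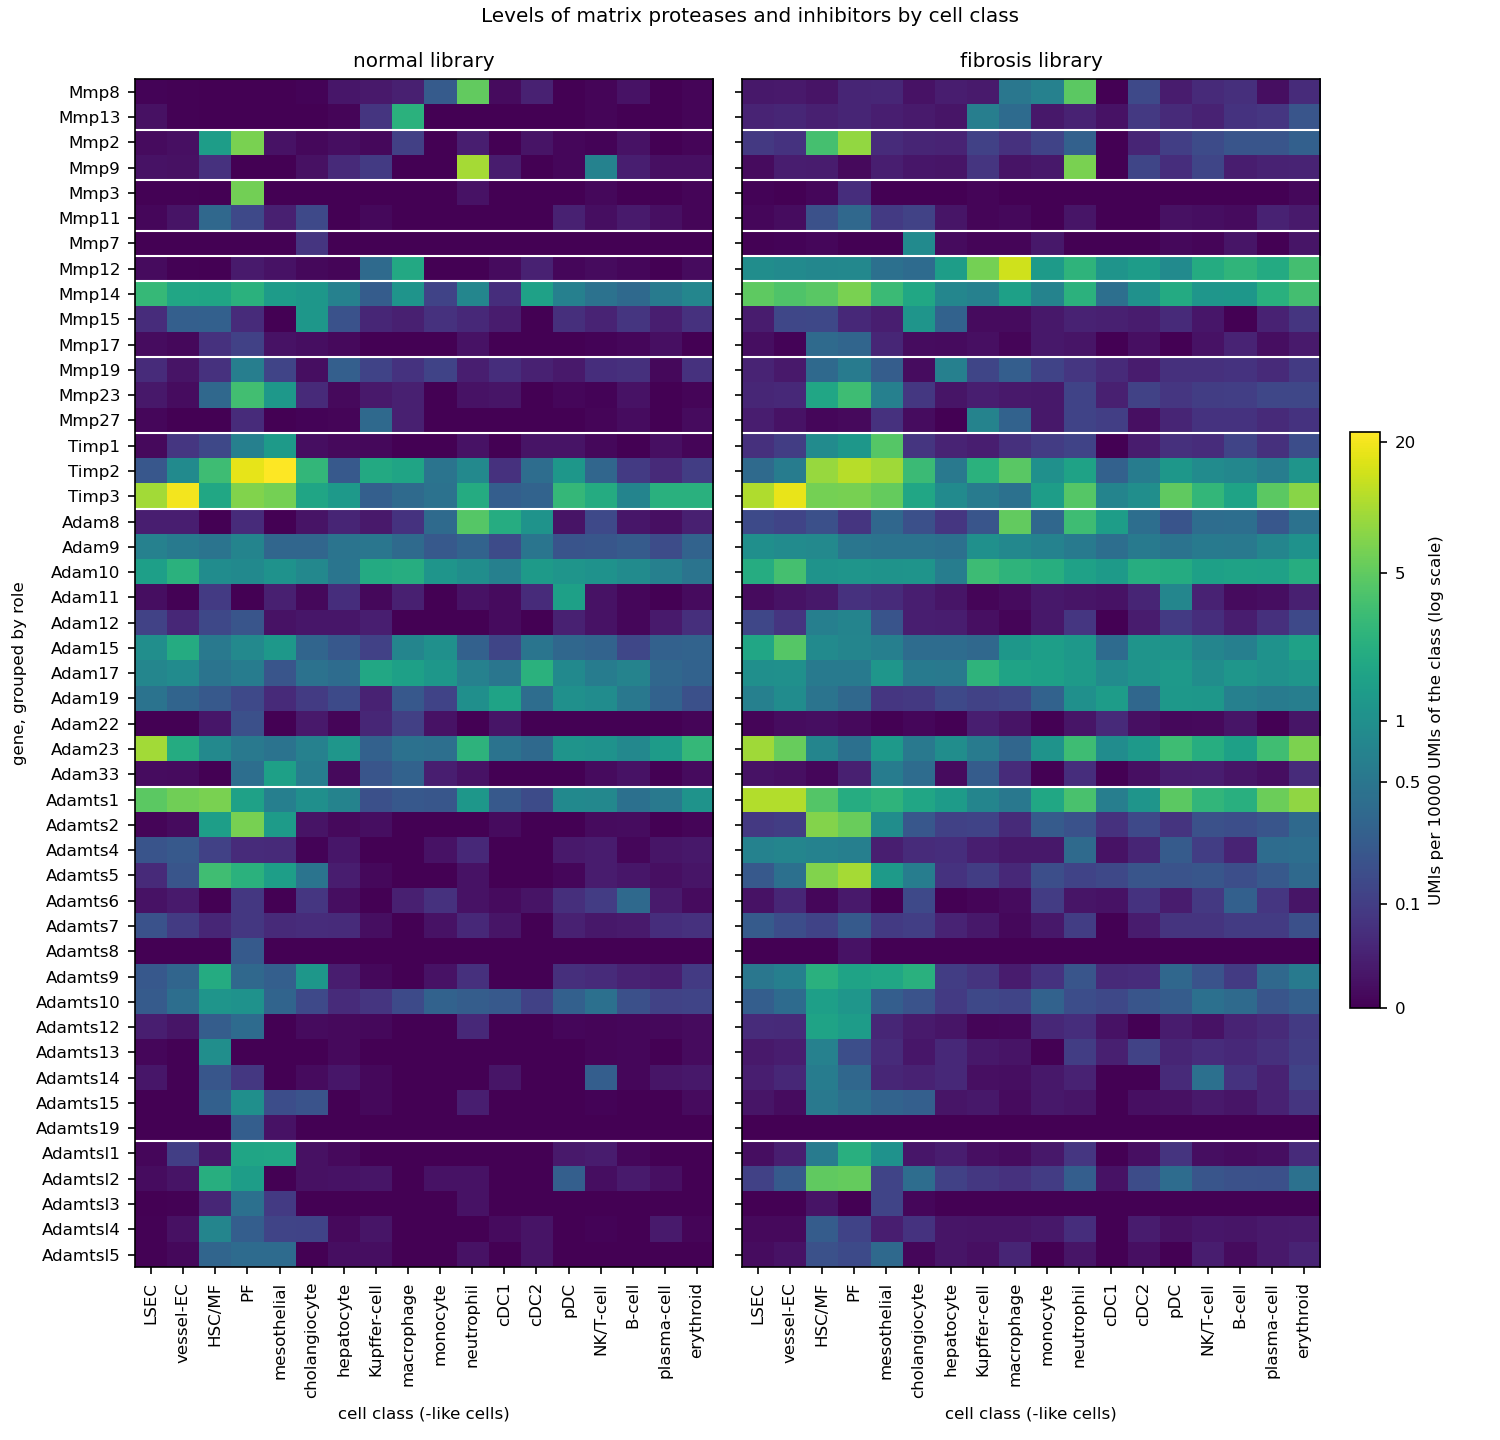
Level of 47 members, of which 38 reach 0.5 UMIs per 10000 in a named class and the others pass a ratio of 2 between the libraries, in 18 named classes of the normal (left) and the fibrosis (right) library; colour is UMIs per 10000 UMIs of the class on a log scale and white lines separate roles. Mmp8 and Mmp9 sit in neutrophil-like cells in both panels, Mmp3 in PF-like cells in the left panel only, and Mmp12 reaches 14.4 in fibrosis macrophage-like cells and is above 0 in every class of the right panel.

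The collagenases of these libraries were Mmp8 and Mmp13, enzymes that cut fibrillar collagen. Mmp8, the neutrophil collagenase, had a level of 5.17 (4.61 to 5.78) in normal and 4.76 (4.17 to 5.41) in fibrosis neutrophil-like cells, and the intervals overlapped. Monocyte-like cells had Mmp8 levels of 0.239 and 0.676. Macrophage-like cells had 1 Mmp8 UMI in normal and 271 in fibrosis, a ratio of levels of 14 (2.48 to 553). Mmp13 was in macrophage-like cells of the normal library at a level of 2.43 (1.88 to 3.09) and was lower there in fibrosis, at 0.370 (0.320 to 0.425), a ratio of 0.152 (0.115 to 0.204). In Kupffer-cell-like cells Mmp13 went the other way, from 0.0793 to 0.629, but 59 of the 135 fibrosis UMIs were in 1 cell and the level without it was 0.357. Over both classes together the Mmp13 ratio was 1.01 (0.785 to 1.3). The normal macrophage-like class was led by Cx3cr1 and Cd207, whereas 166 of the 307 fibrosis cells were led by Gpnmb, so the classes compared differ in makeup.

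The gelatinases Mmp2 and Mmp9, which cut denatured collagen and basement membrane, were carried by different cells. Mmp2 was mesenchymal, with a level in PF-like cells of 6.51 (5.70 to 7.42) in normal and 8.23 (7.71 to 8.77) in fibrosis. In HSC/MF-like cells Mmp2 was 1.45 (1.12 to 1.86) in normal and 3.61 (3.32 to 3.91) in fibrosis, a ratio of 2.48 (1.92 to 3.27). Lymphoid cells, here all cells named NK/T-cell-like or B-cell-like, serve as a yardstick for RNA that turns up in all droplets, except for members they carry themselves (Adam8, Adam19, Mmp9, Adamts6 and Adamts14), and their Mmp2 level was 0.00690 and 0.165. Mmp9, stored in neutrophil granules, had a level of 9.83 (9.05 to 10.7) in normal and 6.46 (5.77 to 7.20) in fibrosis neutrophil-like cells, a ratio of 0.657 (0.571 to 0.754). With cells limited to 5% mitochondrial counts the neutrophil-like levels were 10.8 and 11.1 for Mmp9, so the fall was not seen, and 6.496 and 8.85 for Mmp8. NK/T-cell-like cells also carried Mmp9 in normal, at 0.701, and had 0.129 in fibrosis, a ratio of 0.184 (0.121 to 0.270).

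Mmp3, the stromelysin that cuts many matrix proteins and activates other MMPs, had the most unequal pair of PF-like levels among members with UMIs on both sides. Its level was 6.06 (5.27 to 6.93) in normal and 0.0608 (0.0244 to 0.125) in fibrosis PF-like cells, a ratio of 0.0100 (0.00399 to 0.0210). The 212 normal UMIs lay in 14 of 43 cells (32.6%), of which 1 held 62, and the 7 fibrosis UMIs lay in 1 of 60 cells. In normal lymphoid cells, with a median of 3151.5 UMIs against 7333 in PF-like cells, 0.189% of cells had an Mmp3 UMI. Mmp11, a stromelysin that acts little on matrix, was low throughout, with its highest level in HSC/MF-like cells in normal (0.341) and in PF-like cells in fibrosis (0.339). Mmp7, the epithelial matrilysin, was found in cholangiocyte-like cells at 0.0769 (0.0493 to 0.114) in normal and 0.883 (0.751 to 1.03) in fibrosis, a ratio of 11.5 (7.45 to 18.5). Of the 159 fibrosis UMIs of Mmp7, 52 were in 1 cell, and the level without that cell was 0.606.

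Several of these genes are neighbours. On chromosome 9 (GRCm38, 7272514 to 7699585) 10 MMP genes lie in a row of 427072 bases with 0 other protein-coding genes between them, in the order Mmp13, Mmp12, Mmp1b, Mmp3, Mmp1a, Mmp10, Mmp8, Mmp27, Mmp20 and Mmp7. The libraries listed 8 of them, all but Mmp1b and Mmp1a. Of the 6 with more than a few UMIs, Mmp13 and Mmp12 were carried by macrophage-like and Kupffer-cell-like cells in both libraries (Mmp13 also by LSEC-like cells in normal and erythroid-like cells in fibrosis), and Mmp27 by Kupffer-cell-like cells in normal and by both classes in fibrosis. Mmp3 was carried by PF-like cells in normal, Mmp8 by neutrophil-like and monocyte-like cells in both libraries and by macrophage-like cells in fibrosis, and Mmp7 by cholangiocyte-like cells in both. Mmp10 had 1 UMI in each library, and Mmp20 had 1 in fibrosis and was not listed in normal.

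**Figure D2:**
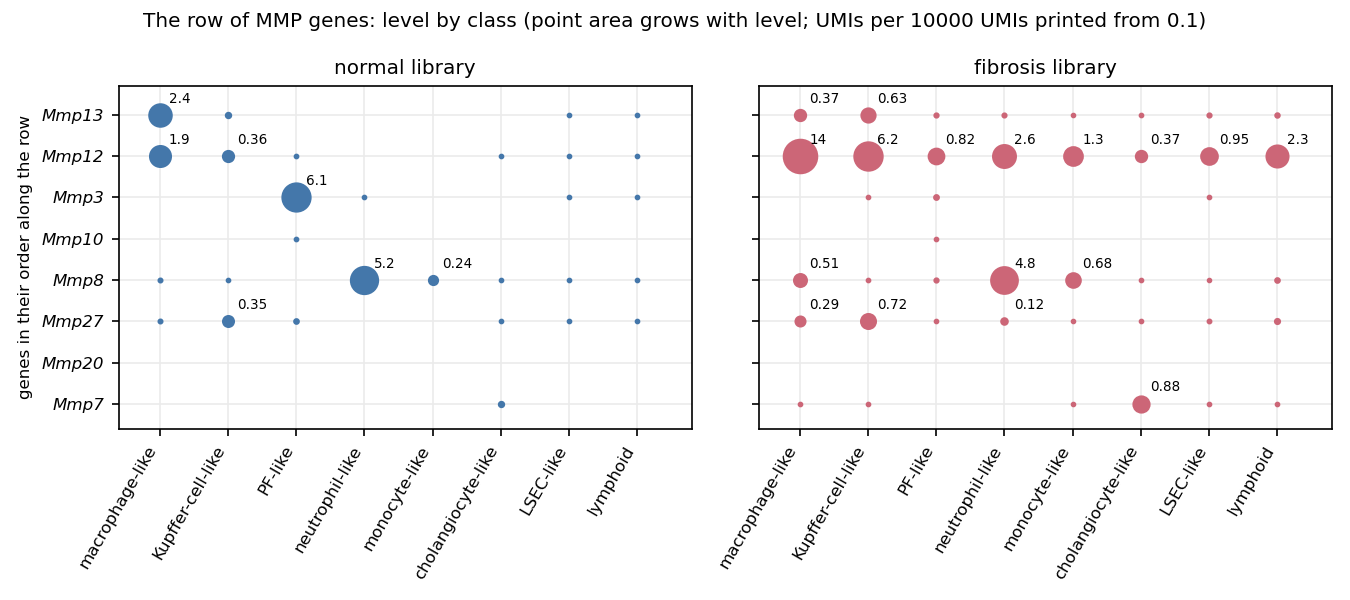
Level of the 8 listed genes of the chromosome 9 row (vertical axis, in genomic order) by class (horizontal axis) in the normal and the fibrosis library; point area grows with UMIs per 10000 UMIs and levels from 0.1 are printed. Mmp12 in fibrosis has a point in every class shown, while Mmp8 stays largest in neutrophil-like cells in both libraries.

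The 250 bases before the RefSeq start (GRCm38.p6, plus strand) are shown for 4 genes of the row, since neighbours that share 2 carriers (Mmp13 and Mmp12) and others that do not (Mmp3 and Mmp7) can be compared letter by letter there. Capitals mark TGANTCA, the palindromic letters of an AP-1 site, and TATAAA, searched on both strands.
Mmp13 chr9:7272264-7272513: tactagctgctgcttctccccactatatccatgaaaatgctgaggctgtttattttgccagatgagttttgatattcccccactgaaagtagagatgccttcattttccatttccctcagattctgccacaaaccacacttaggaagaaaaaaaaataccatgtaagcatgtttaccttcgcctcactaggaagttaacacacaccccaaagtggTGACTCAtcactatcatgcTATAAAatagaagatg
Mmp12 chr9:7344147-7344396: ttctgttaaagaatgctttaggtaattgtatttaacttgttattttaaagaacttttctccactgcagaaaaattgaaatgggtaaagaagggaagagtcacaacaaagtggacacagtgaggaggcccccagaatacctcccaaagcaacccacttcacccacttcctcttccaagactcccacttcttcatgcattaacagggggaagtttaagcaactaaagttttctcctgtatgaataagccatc
Mmp3 chr9:7445572-7445821: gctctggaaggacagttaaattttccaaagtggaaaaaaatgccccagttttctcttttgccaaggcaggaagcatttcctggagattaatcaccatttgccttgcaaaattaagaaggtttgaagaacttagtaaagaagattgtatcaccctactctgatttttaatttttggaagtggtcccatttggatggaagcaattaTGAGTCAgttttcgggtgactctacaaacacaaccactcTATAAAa
Mmp7 chr9:7691840-7692089: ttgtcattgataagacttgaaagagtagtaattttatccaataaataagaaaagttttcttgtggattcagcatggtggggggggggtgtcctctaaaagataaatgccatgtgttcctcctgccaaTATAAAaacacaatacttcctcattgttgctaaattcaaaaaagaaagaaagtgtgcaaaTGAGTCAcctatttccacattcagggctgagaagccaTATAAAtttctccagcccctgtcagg
In this window TGANTCA began 35 bases before the start in Mmp13, 46 in Mmp3 and 63 in Mmp7, and TATAAA began at 16 in Mmp13, at 7 in Mmp3 and at 123 and 26 in Mmp7. The windows of Mmp12, Mmp8 and Mmp27 held neither, and those of Mmp12 and Mmp8 start 16 and 27 bases from the annotated start used for the gene positions. Of the 8 listed genes of the row, 5 had both motifs, against 0 of the 37 other members with a promoter sequence. Of 32851 promoters of this length, 6.75% held TGANTCA, 12.4% TATAAA and 1.21% both. These are matches of letters and say nothing of a factor bound there.

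The macrophage elastase Mmp12, which cuts elastin, had 403 UMIs in normal and 15556 in fibrosis over all cells. In macrophage-like cells its level was 1.92 (1.44 to 2.52) in normal and 14.4 (14 to 14.7) in fibrosis, a ratio of 7.46 (5.70 to 9.97). In Kupffer-cell-like cells it was 0.364 (0.274 to 0.473) and 6.17 (5.84 to 6.51), a ratio of 17.0 (13 to 22.6). The fibrosis UMIs were concentrated, since 10 macrophage-like cells held 41.2% of the 7677 UMIs of their class and 10 Kupffer-cell-like cells held 63.8% of 1325, with up to 428 and 245 in 1 cell. Within the fibrosis macrophage-like class the 166 Gpnmb-led cells had an Mmp12 level of 18.6 and the 141 cells led by Cd207 and Cx3cr1 had 6.86.

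Mmp12 was also found at a low level in every named class of the fibrosis library. Lymphoid cells had 0.00863 in normal and 2.26 in fibrosis, with no cell over 6 UMIs, and LSEC-like cells had 0.00943 and 0.955. A UMI of Mmp12 was seen in 71.3% of fibrosis macrophage-like, 70.5% of Kupffer-cell-like and 46.3% of lymphoid cells, whose median depths were 15445, 10168.5 and 2373 UMIs. With each cell thinned to 1000 UMIs, which kept 307 of 307, 200 of 200 and 1066 of 1078 cells, the Mmp12 shares were 29.3%, 22.0% and 22.8%. The thinned share of Kupffer-cell-like cells was thus not above the lymphoid share, while their level was. Mmp12 is counted below as higher in LSEC-like, HSC/MF-like and PF-like cells, without a ratio in HSC/MF-like cells, where normal had no UMI. Each of those fibrosis levels was under the lymphoid one, and the part of free RNA in them was not tested. On the genome Mmp12 overlaps Mmp1b on the opposite strand, which neither library listed.

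**Figure D3:**
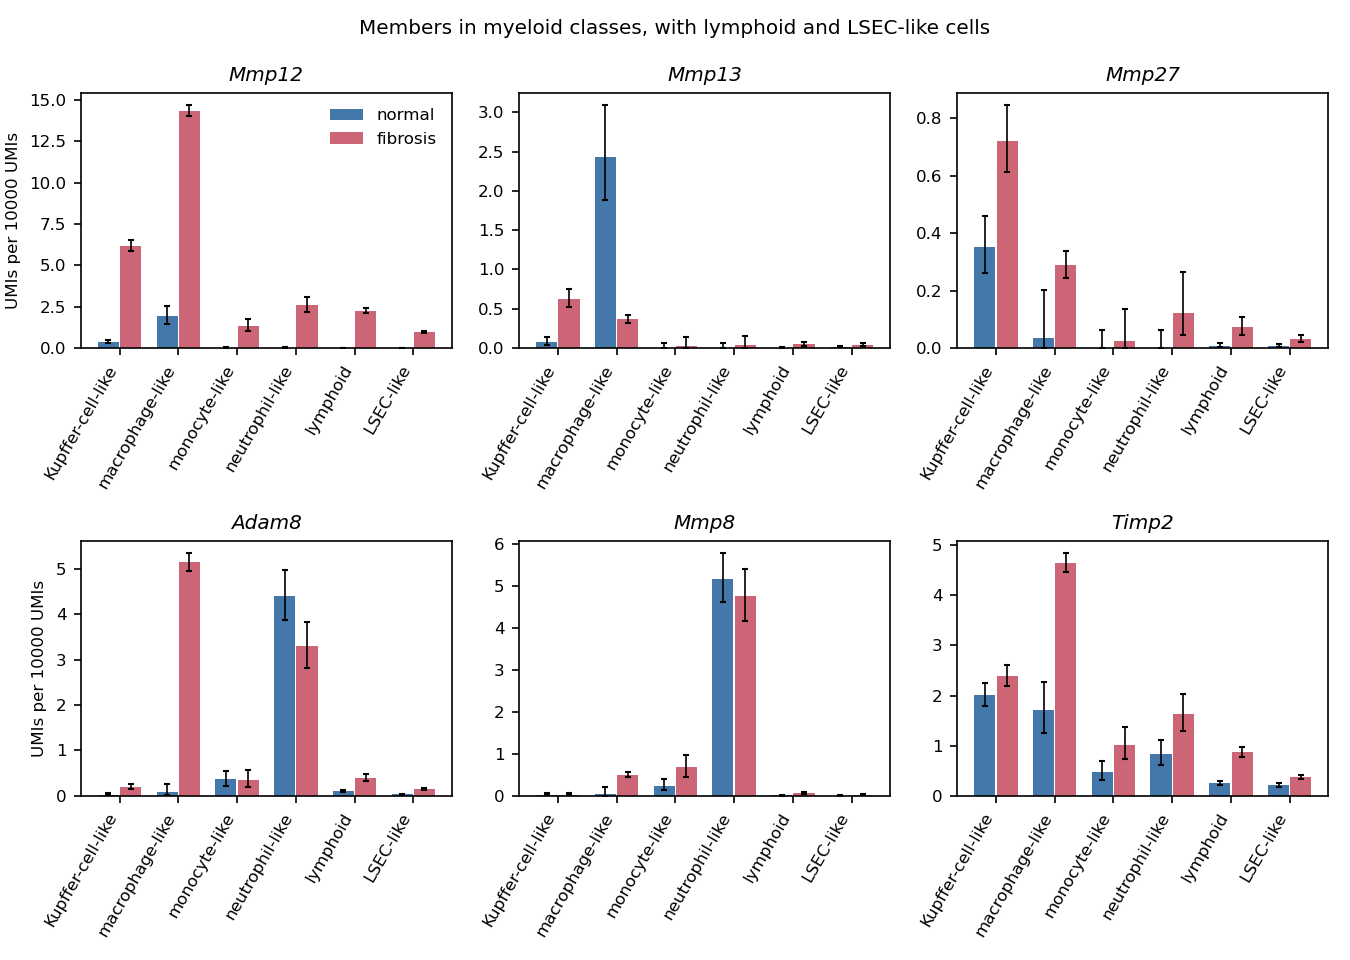
Levels of 6 members in 4 myeloid classes, lymphoid cells and LSEC-like cells; bars are UMIs per 10000 UMIs of the class in the normal (blue) and the fibrosis (red) library and error bars are 95% Poisson intervals, with 1 library a group. Adam8 is at 0.0726 in normal and 5.14 in fibrosis macrophage-like cells, and Mmp12 stands above 0 in the fibrosis bars of all 6 classes.

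Among the membrane-type MMPs, Mmp14 activates the secreted form of Mmp2 at the cell surface. In normal its level was 2.95 (2.83 to 3.07) in LSEC-like and 2.40 (1.91 to 2.97) in PF-like cells, and HSC/MF-like cells had 1.77 (1.40 to 2.21). In fibrosis the levels of Mmp14 were 4.87 (4.72 to 5.01), 6.55 (6.09 to 7.03) and 4.62 (4.29 to 4.96), each above its normal interval. Vessel endothelial-like cells had a Mmp14 ratio of 2.30 (2.11 to 2.51) and lymphoid cells had levels of 0.419 and 1.19. Mmp15 was carried by cholangiocyte-like cells at 1.23 and 1.16, a ratio of 0.942 (0.791 to 1.12). Mmp17, anchored to the membrane by a lipid, had 3 and 60 UMIs in HSC/MF-like cells, a ratio of 5.34 (1.74 to 26.6).

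Among the other MMPs, Mmp23 was mesenchymal, at 3.49 (2.89 to 4.16) and 3.28 (2.96 to 3.63) in PF-like cells. In HSC/MF-like cells the Mmp23 level was 0.341 in normal and 1.80 in fibrosis, a ratio of 5.29 (3.15 to 9.57), and mesothelial-like cells had 1.24 and 0.663. Mmp19 was highest in PF-like cells in normal (0.629) and in hepatocyte-like cells in fibrosis (0.668, interval 0.515 to 0.851), where PF-like cells had 0.591 and the intervals overlapped. Mmp27 was carried by Kupffer-cell-like cells, at 0.350 (0.262 to 0.458) and 0.722 (0.613 to 0.845), a ratio of 2.06 (1.5 to 2.87).

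The inhibitors Timp1, Timp2 and Timp3 each had another order of classes. Timp1, the secreted inhibitor that is a common readout of liver scarring, was highest in mesothelial-like cells, at 1.35 (1.06 to 1.69) in normal and 4.45 (4.02 to 4.91) in fibrosis, a ratio of 3.31 (2.58 to 4.29). HSC/MF-like cells had 6 and 147 Timp1 UMIs, levels of 0.136 and 0.892 and a ratio of 6.54 (2.94 to 18.1). PF-like cells had Timp1 levels of 0.657 and 1.21, a ratio of 1.84 (1.18 to 2.99). Vessel endothelial-like cells carried Timp1 in normal alone. An unnamed group of 30 fibrosis mesenchymal cells led by Cxcl5 and Fndc1 had a Timp1 level of 5.24. The order of Timp1 levels in the fibrosis named classes was thus mesothelial-like, PF-like and HSC/MF-like cells, and the intervals of PF-like and HSC/MF-like cells (1.01 to 1.43 and 0.753 to 1.05) overlapped.

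Timp2, which both inhibits Mmp2 and helps Mmp14 to activate it, was carried by all 3 mesenchymal classes in both libraries. Its normal levels were 22.3 (21.1 to 23.6) in mesothelial-like and 17.8 (16.4 to 19.3) in PF-like cells, and HSC/MF-like cells had 3.29 (2.78 to 3.87). In fibrosis the Timp2 levels of these classes were closer to each other, at 9.30 (8.67 to 9.96), 11.7 (11 to 12.3) and 8.76 (8.32 to 9.23). The Timp2 ratio was below 1 in mesothelial-like cells (0.417, 0.381 to 0.455) and PF-like cells (0.655, 0.595 to 0.721) and above 1 in HSC/MF-like cells (2.66, 2.24 to 3.18). Macrophage-like cells, which carried Timp2 in fibrosis, had levels of 1.71 and 4.65, a ratio of 2.73 (2.05 to 3.72). Cholangiocyte-like cells carried Timp2 in normal alone. Timp2 shares a strand with the overlapping gene Cep295nl, which had 16 and 18 UMIs in all.

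Timp3, which binds to the matrix and also inhibits ADAMs, had its highest levels in endothelium. Vessel endothelial-like cells had the highest Timp3 level in each library, 19.99 (19.6 to 20.4) in normal and 18.4 (17.9 to 18.8) in fibrosis, and LSEC-like cells had 9.55 (9.34 to 9.76) and 10.7 (10.5 to 10.9). PF-like cells, which carried Timp3 in normal as well, had 6.94 (6.10 to 7.87) and 6.30 (5.85 to 6.77). Timp3 in HSC/MF-like cells was 1.86 and 6.14, a ratio of 3.30 (2.63 to 4.18), while lymphoid cells had 1.67 and 2.45. Fibrosis erythroid-like cells, the shallowest class with a median of 1085 UMIs, had a Timp3 level of 7.60, and they also had the endothelial members Adamts1 at 8.01 and Adam23 at 6.74. Timp4 had 2 UMIs in normal and was at 0 in fibrosis. Timp1, Timp3 and Timp4 each lie inside a synapsin gene on the opposite strand (Syn1, Syn3 and Syn2), and these had between 46 and 310 UMIs a library.

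**Figure D4:**
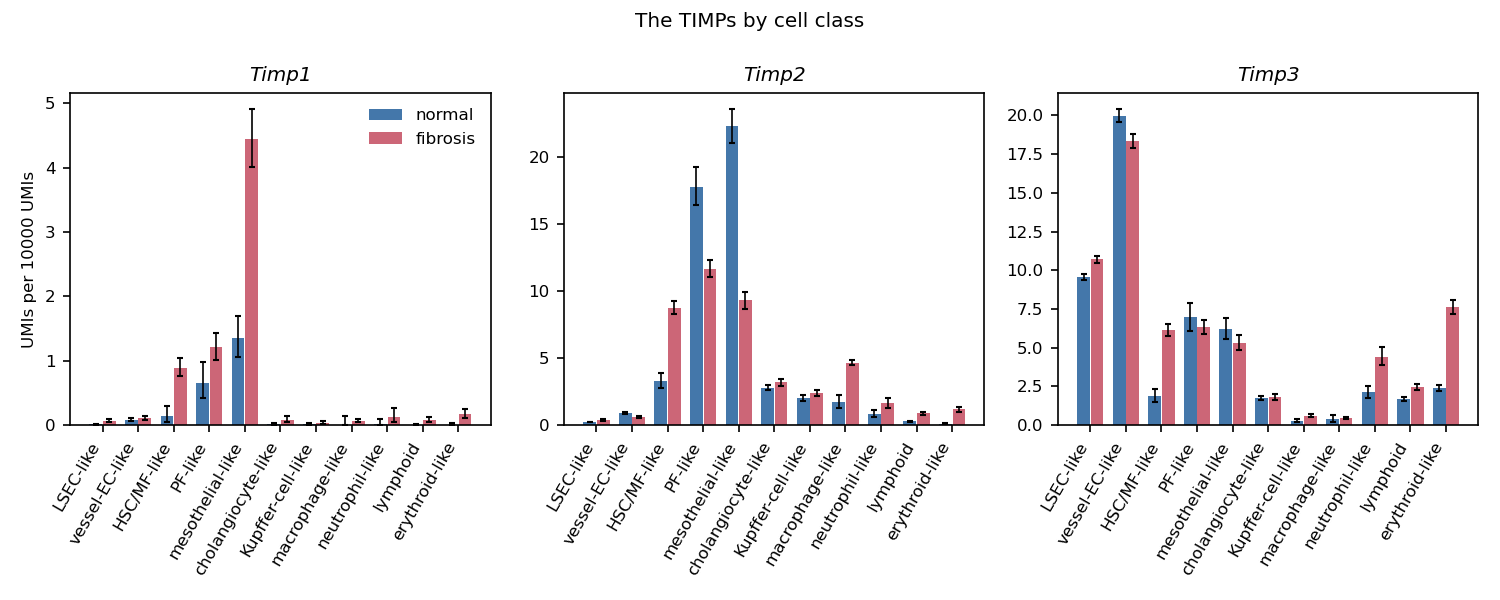
Levels of Timp1, Timp2 and Timp3 by class in the normal (blue) and the fibrosis (red) library; bars are UMIs per 10000 UMIs of the class and error bars are 95% Poisson intervals, with 1 library a group. Timp1 is highest in mesothelial-like cells of the fibrosis library, Timp2 is highest in mesothelial-like and PF-like cells, and Timp3 is highest in vessel endothelial-like cells of both libraries.

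Among the ADAMs, Adam10 and Adam9 were broad. No class carried Adam10, a sheddase that cuts Notch, in either library, and its median over classes was 1.01 in normal and 1.63 in fibrosis. Adam9 had a median level of 0.323 and 0.562 over the classes. Adam17, which releases tumour necrosis factor, was at 2.45 in cDC2-like and 1.90 in Kupffer-cell-like cells in normal and highest in Kupffer-cell-like cells in fibrosis (2.61). The normal cDC2-like class had 3 of 7 markers raised and was led by Ccl17, Il4i1, Ccr7 and Ccl22. Its Adam17 level was 0.916 at a clustering resolution of 1.2, 0.890 without the cells of highest doublet score and 0.699 under a mitochondrial limit of 5%, each below the Kupffer-cell-like level above.

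Other ADAMs were higher in some classes. Adam23, which has no protease activity, had the level 9.63 (9.42 to 9.84) in normal and 9.32 (9.12 to 9.52) in fibrosis LSEC-like cells, and vessel endothelial-like cells had 2.11 and 5.34, a ratio of 2.53 (2.34 to 2.74). Erythroid-like cells carried Adam23 in both libraries, at 2.87 and 6.74. The fibrosis erythroid-like class had 5 of 8 markers raised, and Ighg2b, Cyp3a11 and Serpina1d were among its leaders. The part of free RNA in its Adam23 level was not tested. Adam15, an adhesion protein of endothelium, was 2.11 and 4.48 in vessel endothelial-like cells, a ratio of 2.12 (1.95 to 2.30). The median Adam15 level over the classes rose as well, from 0.325 to 0.972. Adam11, also without protease activity, was carried by plasmacytoid dendritic-like cells alone in both libraries, at 1.56 (1.37 to 1.77) and 0.781 (0.638 to 0.947). Adam19 was highest in cDC1-like cells, at 1.66 and 1.42; 3 normal classes carried it (cDC1-like, plasmacytoid dendritic-like and NK/T-cell-like) and no fibrosis class. Adam33 was highest in mesothelial-like cells, at 1.56 and 0.606, a ratio of 0.388 (0.271 to 0.553), and cholangiocyte-like and Kupffer-cell-like cells carried it in both libraries too. Adam12, a protease of forming muscle and of activated fibroblasts, had 6 and 108 UMIs in HSC/MF-like and 7 and 85 in PF-like cells, with ratios of 4.81 (2.14 to 13.4) and 3.69 (1.72 to 9.46). In normal Adam12 was carried by LSEC-like cells and no other class, at 0.115, but this was not its highest level. PF-like cells had the highest normal level of Adam12 and HSC/MF-like cells the second, at 0.136. Their 7 and 6 UMIs were under the 10 that a carrier needs.

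Adam8, a leukocyte sheddase, changed its leading class. In normal it was highest in neutrophil-like cells (4.40, 3.88 to 4.96) and cDC1-like cells (2.15, 1.87 to 2.46), and macrophage-like cells had 2 UMIs in 1 of 54 cells. In fibrosis the Adam8 level was 5.14 (4.95 to 5.34) in macrophage-like, 3.29 (2.80 to 3.83) in neutrophil-like and 0.399 in lymphoid cells. The macrophage-like ratio of Adam8 was 70.9 (19.6 to 585), the Gpnmb-led cells were at 6.84 and the cells led by Cd207 and Cx3cr1 at 2.19.

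The ADAMTS proteoglycanases cut aggrecan and versican, and their carriers differed. Adamts5 had a PF-like level of 2.40 (1.91 to 2.97) in normal and 9.81 (9.25 to 10.4) in fibrosis, and a HSC/MF-like level of 3.43 (2.90 to 4.02) and 6.93 (6.54 to 7.35). Mesothelial-like cells carried Adamts5 in both libraries, and cholangiocyte-like and vessel endothelial-like cells carried it in normal. The neighbour of Adamts5 on chromosome 16, Adamts1 (85793827 to 85803113, with Adamts5 at 85856173 to 85901828), was endothelial as well as stellate. Adamts1 in LSEC-like cells was 4.80 (4.66 to 4.95) in normal and 11.1 (10.9 to 11.3) in fibrosis, and vessel endothelial-like cells had 5.96 and 11.1. In HSC/MF-like cells Adamts1 went the other way, from 6.45 (5.72 to 7.24) to 4.29 (3.98 to 4.62), a ratio of 0.666 (0.579 to 0.767), and lymphoid cells had 0.699 and 2.60. Adamts4 was low and endothelial in normal and was at similar levels in 4 classes in fibrosis, 0.755 in vessel endothelial-like, 0.708 in LSEC-like, 0.697 in HSC/MF-like and 0.643 in PF-like cells. Erythroid-like (0.407) and plasma-cell-like cells (0.386) carried it in fibrosis too, and the part of free RNA in these levels was not tested.

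Adamts9 was carried by HSC/MF-like cells (2.11 and 2.36) and cholangiocyte-like cells (1.2 and 2.38) in both libraries, with both endothelial classes in normal and the other mesenchymal classes in fibrosis. Its ratio was 6.63 (3.90 to 12.1) in mesothelial-like and 4.94 (2.76 to 9.73) in PF-like cells, against 1.12 (0.889 to 1.42) in HSC/MF-like cells. Adamts15 was highest in PF-like cells in normal (1.0, 0.696 to 1.39) and was 0.417 there in fibrosis. HSC/MF-like cells went the other way, from 0.272 to 0.546, the highest fibrosis level of Adamts15. Mesothelial-like and cholangiocyte-like cells carried Adamts15 in fibrosis too. Adamts8 had 8 and 2 UMIs in PF-like cells and none in the other named classes.

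The procollagen N-proteinases remove the amino-terminal end of fibrillar procollagens before fibrils form. Adamts2 was highest in PF-like cells in normal, at 6.43 (5.62 to 7.33), with 1.5 (1.16 to 1.91) in HSC/MF-like cells. In fibrosis Adamts2 was 5.55 (5.13 to 6.00) in PF-like cells, and HSC/MF-like cells reached 7.08 (6.68 to 7.50), a ratio over normal of 4.73 (3.69 to 6.15). Adamts14 was carried by NK/T-cell-like cells in both libraries, at 0.262 and 0.426, and by HSC/MF-like cells (0.594) and PF-like cells (0.330) in fibrosis. The third enzyme, Adamts3, had 9 and 31 UMIs in all.

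Adamts13, which cuts von Willebrand factor and is made by stellate cells, was carried by HSC/MF-like cells alone in both libraries, at 0.976 (0.707 to 1.32) and 0.673 (0.554 to 0.811). Adamts12 had 11 and 275 UMIs in HSC/MF-like cells, a ratio of 6.68 (3.67 to 13.5), and its PF-like ratio was 3.84 (2.18 to 7.36). Adamts10, linked to fibrillin, was steady, with HSC/MF-like levels of 1.16 and 1.52 and overlapping intervals. Adamts6 was highest in B-cell-like cells (0.353 and 0.271), and Adamts7 in LSEC-like cells (0.181 and 0.239). Adamts19 had 9 UMIs in normal PF-like cells, of which 1 cell held 6, and 0 in fibrosis.

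The 5 ADAMTS-like genes, which build and bind matrix, were carried by mesenchymal classes in both libraries. Adamtsl2, known to bind fibrillin and latent TGF-beta binding protein, was 2.27 (1.85 to 2.76) in normal and 5.01 (4.67 to 5.36) in fibrosis HSC/MF-like cells, and 1.46 and 5.30 in PF-like cells. Adamtsl1 was at 1.74 and 2.28 in PF-like cells and had 1 and 96 UMIs in HSC/MF-like cells, a ratio of 25.6 (4.49 to 1023) that was 9.04 and 16.9 at clustering resolutions of 0.4 and 1.2. Adamtsl4 was lower in fibrosis HSC/MF-like cells, at 0.749 (0.516 to 1.05) and 0.249 (0.178 to 0.337). Adamtsl3 had 15 UMIs in normal PF-like cells and 0 in fibrosis, at least 16.4-fold lower with the fibrosis library set at its floor of 3 counts. Adamtsl5 was highest in mesothelial-like cells, at 0.377 and 0.354.

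The libraries were then compared within 4 classes, counting members whose level was over 2 times higher or lower in fibrosis among those with a mean level of at least 0.05. In HSC/MF-like cells 35 members passed that level, of which 21 were higher and 2 lower in fibrosis. Over all 10869 genes compared in that class, 10.9% were higher and 10.7% lower. The members' median log2 ratio was 1.06 and that of all genes 0.01. The interval of the ratio lay above 1 for 20 of the 21 and below 1 for 1 of the 2, Adamtsl4, with Adam11 (4 and 4 UMIs) the other. The PF markers raised in this class, 1 in normal and 4 in fibrosis, move with these ratios, and their part in them was not tested. The higher members included Timp1, Timp2 and Timp3, the gelatinase Mmp2 with its activator Mmp14, Adamts2, Adamts12 and Adamts5. Adamts5 was just past 2 times (2.02) and was between 1.73 and 1.98 under 4 alternatives, with all deposited cells the lowest. Adamts1, Adamts13 and Adamts9 were not among them, with ratios of 0.666 (0.579 to 0.767), 0.689 (0.481 to 1.005) and 1.12 (0.889 to 1.42). Mmp2, Mmp14, Timp3 and Adamts5 were also higher in lymphoid cells of the fibrosis library, at levels below those of HSC/MF-like cells. The part of free RNA in the HSC/MF-like ratios was not tested.

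Of the 21 higher members in HSC/MF-like cells, Adam19, Adam8 and Mmp12 were at or below the lymphoid level of the fibrosis library, and NK/T-cell-like cells themselves carried Adam19 and Adam8 in normal. Mmp12 and Adam8 had 0 UMIs in normal HSC/MF-like cells and were at least 11.6-fold and 2.49-fold higher, with the normal library set at its floor of 3 counts. Within the fibrosis class, 75 cells led in their lineage by Ankrd1, Vegfd and Robo2 had levels of 8.57 for Adamts2, 8.19 for Adamts5, 10.2 for Timp2 and 1.13 for Timp1. The other 69 cells, with Tmem56, Angptl6 and also the neutrophil genes S100a8 and S100a9 among their leaders, had 3.76, 4.12, 5.45 and 0.353. Adamts13 had the opposite order, 0.492 and 1.08 in these groups. The unnamed fibrosis mesenchymal cells (cycling, with endothelial markers and with macrophage markers) had Adamts2 levels of 4.13, 2.15 and 2.82 and Mmp2 levels of 2.09, 1.25 and 1.79. The normal class of 62 cells is less certain than the fibrosis one, since Ighm, Ccl5, Ccl4 and Fcna of other lineages were among its leaders and 32 of its cells were grouped as cycling mesenchymal cells after cells in the top 5% of Scrublet doublet scores had been removed and the others clustered anew.

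In PF-like cells 42 members were compared, with 14 higher and 10 lower in fibrosis, against 15.1% higher and 13.6% lower of 11235 genes. The median log2 ratio was 0.12 for members and 0.05 for all genes. Intervals lay above 1 for 10 of the 14 and below 1 for 8 of the 10. The higher members included Adamts5 (4.09, 3.27 to 5.17), Mmp14 (2.73, 2.18 to 3.46), Adamtsl2 (3.64, 2.73 to 4.94) and Adamts4 with 2 and 74 UMIs (11.2, 3.01 to 94.6). Adamts13 had 0 and 19 UMIs, at least 1.93-fold higher; it was counted as higher on a normal level of 0, and its bound is under 2 times. Adam19 and Mmp12 were at or below the lymphoid level, and NK/T-cell-like cells themselves carried Adam19 in normal. Lymphoid levels of Adamts5 and Mmp14 were also higher in fibrosis, and the part of free RNA in the PF-like ratios was not tested. The lower ones included Mmp3, Adam33 (0.0869, 0.0208 to 0.277), Adamts15 (0.417, 0.264 to 0.664) and the low Adamtsl3, Adamts8, Adam22 and Adamts19. Mmp2, Mmp23, Adamts2 and Timp3 were not past 2 times, with ratios of 1.26 (1.09 to 1.47), 0.942 (0.766 to 1.16), 0.863 (0.741 to 1.01) and 0.907 (0.783 to 1.05). The change of markers of the PF-like class given above, with smooth muscle markers raised in fibrosis, moves with all these ratios and its part in them was not tested.

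**Figure D5:**
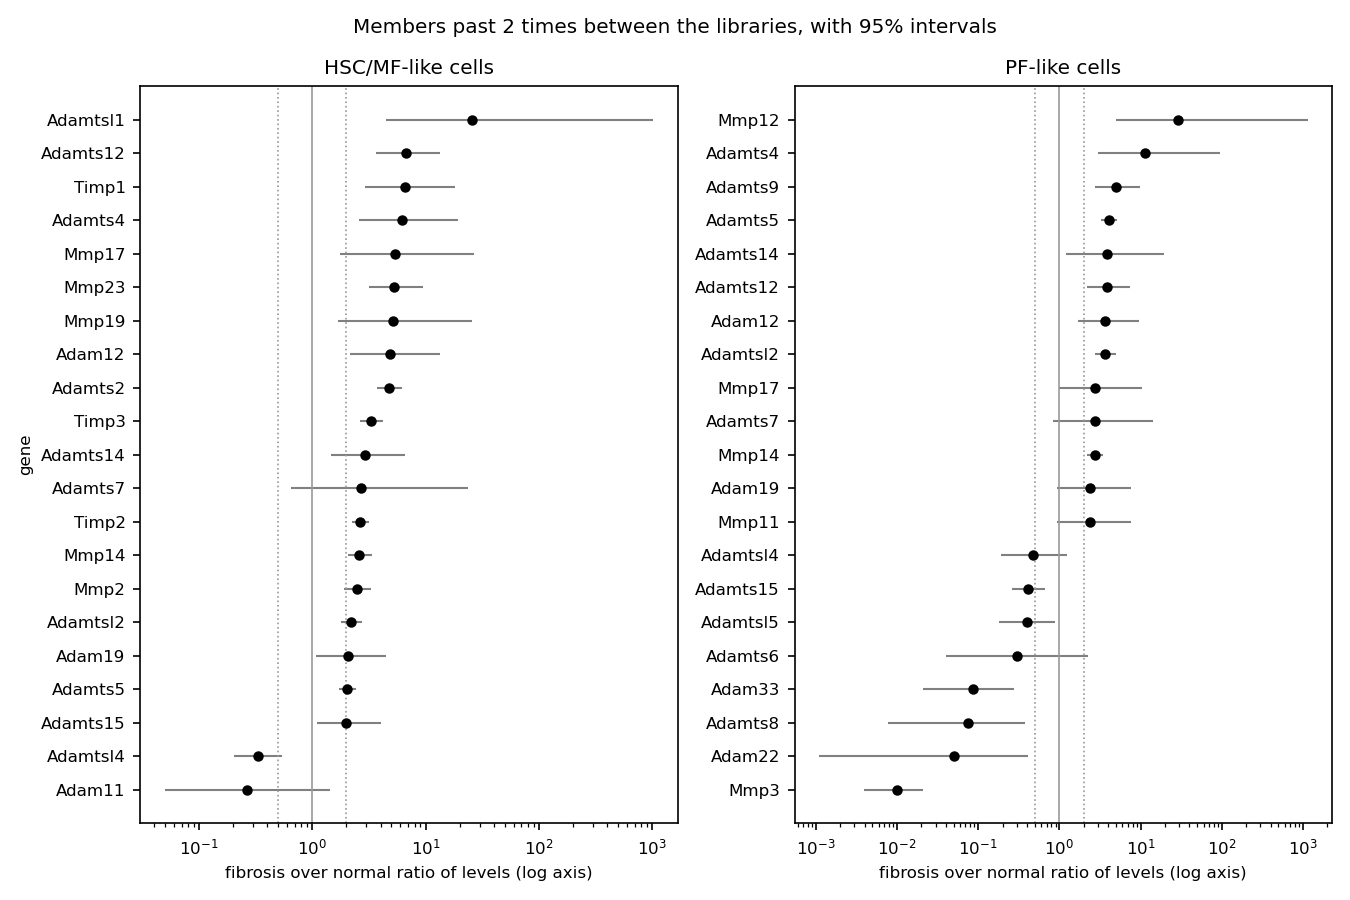
Ratio of fibrosis over normal levels (log axis) for each member past 2 times in HSC/MF-like cells (left) and PF-like cells (right), with points for ratios, bars for 95% intervals of counting error, a solid line at 1 and dotted lines at 0.5 and 2; members with 0 UMIs in either library have no ratio and are left out. In HSC/MF-like cells 19 points lie to the right of 1 and 2 to the left, and in PF-like cells Mmp3 is the farthest to the left with a ratio near 0.01.

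In Kupffer-cell-like and macrophage-like cells together (261 and 507 cells), 20 members were compared and 8 were higher and 1 lower in fibrosis, against 6.25% higher and 9.29% lower of 10169 genes. The higher ones were Mmp12 (19.9, 16.4 to 24.3), Adam8 (111, 51.0 to 303), Mmp8 (13.2, 5.59 to 41.0), Adam15 (4.53, 3.27 to 6.46), Mmp14 (3.46, 2.70 to 4.49), Timp2 (2.04, 1.83 to 2.29), Adamts1 and Mmp2. The last 2 were below the lymphoid level in fibrosis. Mmp9 was the lower one, at 0.0783 and 0.0360. Macrophage-like cells made up 54 of the 261 normal and 307 of the 507 fibrosis cells, so a ratio over both classes also moves with that mix. In Kupffer-cell-like cells alone 15 of 22 members were higher and 0 lower, against 6.44% higher and 6.04% lower of 10133 genes, and in macrophage-like cells alone 8 of 20 were higher and 3 lower, against 10.6% and 21.1% of 10310 genes. Within a class some of the calls above ended. In macrophage-like cells alone the ratios were 1.59 for Adam15, 1.39 for Mmp14 and 0.635 for Mmp2, and in Kupffer-cell-like cells alone that of Timp2 was 1.19 and Mmp8 was too low to compare. Mmp9 was at 0.855 in Kupffer-cell-like cells and too low to compare in macrophage-like cells, where Mmp13, Adam33 and Adam22 were the lower ones. Of the 15 higher members in Kupffer-cell-like cells, 11 were at or below the lymphoid level in fibrosis, among them Adamts2, Adamts5, Adamtsl2 and Mmp2 with at most 3 normal UMIs, and Mmp12, Mmp13, Mmp27 and Adam9 were above it.

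In LSEC-like cells 19 members were compared, with 7 higher and 0 lower in fibrosis, against 4.63% higher and 5.91% lower of 10389 genes. The normal class of 1562 cells holds 167 that were led by Cxcl13 and by genes known from mesenchymal cells, among them Col1a2, Acta2, Dcn and Des, and without them (an alternative chosen after seeing the data) 8 members were higher, with Timp2 added (2.21 in place of 1.70). A further 209 normal cells were led in their lineage by Lsr and hepatocyte genes such as Ugt2b36 and Hrg, and 210 fibrosis cells by the globin genes Hbb-bs, Hba-a1 and Hba-a2. Without either group, also tried after seeing the data, 7 and 8 members were higher and 0 lower. The LSEC-like levels and carriers given above include the cells of all these groups. Adamts1 (2.30, 2.22 to 2.39), Adamts4 (3.66, 3.08 to 4.37), Adamts9 (2.32, 1.95 to 2.76) and Adamts5 (4.11, 2.97 to 5.79), all proteoglycanases, were higher and above the lymphoid level, with Adamts1 at 1.94 under a mitochondrial limit of 5% and Adamts5 above by little (0.223 against 0.196), while Adam8, Adamtsl2 and Mmp12 were below it. For Adam8 the lymphoid level is no such yardstick, since NK/T-cell-like cells themselves carried it in normal. Timp3 and Adam23 were not past 2 times, with ratios of 1.12 (1.09 to 1.15) and 0.968 (0.939 to 0.998), and Mmp14 had 1.65 (1.57 to 1.73). Lymphoid cells themselves had ratios of 3.71 (3.29 to 4.19) for Adamts1 and 7.11 (4.06 to 13.2) for Adamts5, larger than those of LSEC-like cells, and the part of free RNA in the LSEC-like ratios was not tested.

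The remaining 25 members were under 0.5 UMIs per 10000 in every named class of 30 cells and past 2 times in none of the 4 comparisons, with at most 145 UMIs in a library. Of all 72 members, 20 had under 20 UMIs in each library, among them Mmp10, Mmp20, Mmp21, Mmp24, Timp4 and the testis ADAMs Adam2 and Adam3. Adamts16 was carried by cholangiocyte-like cells in both libraries, with 51 and 33 UMIs in all. Mmp16, a membrane-type MMP, was carried by PF-like cells in both, at 0.286 and 0.295. Mmp28 was carried by vessel endothelial-like cells and Adam30 by cholangiocyte-like cells in normal alone. The 122 and 145 UMIs of Adam4 cannot be told apart from reads of Cox16, which holds Adam4 on the same strand and had 677 and 689 UMIs.

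Pathway genes that are not members were counted in the same way from a list of 25 (activators, plasminogen system, procollagen processing, sheddase partners and other inhibitors). Of these, 17 were compared in HSC/MF-like cells and 8 were higher and 0 lower in fibrosis, against 10.9% and 10.7% of all genes: the procollagen C-proteinase Bmp1 (2.74, 1.77 to 4.47), the secreted proteases Htra1 (12.4, 3.34 to 104) and Htra3 (4.19, 2.40 to 8.01), the plasminogen activator Plat (34.4, 11.7 to 167), the protease inhibitor Serpine2 (18.9, 8.03 to 58.6), and Plaur, Pcsk6 and Rhbdf2 with at most 36 UMIs in either library. Reck, a membrane inhibitor of MMPs, had a ratio of 0.740 (0.508 to 1.10) there. In PF-like cells 1 of 19 was higher (Serpine2) and 7 were lower, against 15.1% and 13.6% of all genes, among them the procollagen enhancers Pcolce (0.440, 0.375 to 0.516) and Pcolce2 (0.0356, 0.0172 to 0.0666) and Htra3 (0.210, 0.164 to 0.268). In Kupffer-cell-like and macrophage-like cells 3 of 12 were higher (Pcolce, Plaur and Tspan5) and 3 lower (Pcolce2, Tspan15 and Tspan33), against 6.25% and 9.29%. In LSEC-like cells the urokinase receptor Plaur alone of 12 was past 2 times, against 4.63% higher and 5.91% lower of all genes, at 3.02 (2.33 to 3.95), with fibrosis levels of 0.274 there and 0.368 in lymphoid cells.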

How the data were processed

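Processed data of 2 libraries were used, each with UMI counts per gene and cell that the authors made with Cell Ranger 3.0.1 (mm10) and deposited unfiltered by class; 1 mouse a group. As in the study's methods, cells with over 200 genes and under 10% mitochondrial counts were kept. With scanpy 1.11.5 (Python 3.11.15), each library was clustered separately (2000 variable genes, 10 principal components, 20 neighbours, Leiden resolution 0.8), then each lineage again. Clusters were named where at least 3 markers were raised 2 times. The naming rule was set after the clusters had been seen, and members, markers and pathway list were chosen with earlier results of these data known. 1 gene of the pathway list is not reported here and was left out of its counts. Doublets were scored with Scrublet and not removed. A gene was named at 0.5 UMIs per 10000 in a named class of at least 30 cells, or past 2 times between libraries. Levels have exact Poisson intervals and ratios exact conditional intervals, both 95%; a count of 0 is set at 3 counts. All UMIs of a group come from 1 mouse, so intervals cover counting error only, and depth limits classes of few cells. The steps were tested on simulated data. Alternatives, among them other filters, resolutions and UMIs per cell, are given last. Promoters came from RefSeq (GRCm38.p6) and matched 45 members; gene positions came from GENCODE for GRCm38.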

Additional observations from a re-analysis of the deposited data

How the results depend on the processing

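Counts of members per comparison were recomputed under other filters, resolutions, scalings and without single cells. The shares of all genes were not recomputed, so the counts in this section have no background beside them. With mean UMIs per cell in place of levels, which also carries the higher depth per cell in fibrosis (the median gene rose by a log2 of 1.29 in PF-like cells, 0.73 in LSEC-like cells, 0.70 in HSC/MF-like cells and 1.08 in Kupffer-cell-like with macrophage-like cells), LSEC-like cells had 15 members past 2 times in place of 7, Kupffer-cell-like and macrophage-like cells 18 (18 higher, 0 lower) in place of 9 (8 higher, 1 lower), PF-like cells 35 (29 higher, 6 lower) in place of 24 and HSC/MF-like cells 25 (24 higher, 1 lower) in place of 23. In PF-like cells and in Kupffer-cell-like with macrophage-like cells the median gene was thus itself past 2 times on this scale. The PF-like ratio of Adamtsl4 turned from 0.473 to 1.11. A mean level of at least 0.2 left 4 members in LSEC-like cells, 20 in HSC/MF-like cells (19 higher, 1 lower), 17 in PF-like cells (12 higher, 5 lower) and 6 in Kupffer-cell-like and macrophage-like cells (6 higher, 0 lower; Mmp8, Mmp2 and Mmp9 were too low). Kupffer-cell-like cells alone, an alternative chosen after seeing the data, gave 15. A mitochondrial limit of 5% left 1853 normal and 1705 fibrosis cells, 21 carried members in normal in place of 45, and no normal HSC/MF-like or PF-like class to compare. Under it 24 of 36 levels lay outside their interval, against 30 of 86 without the highest Scrublet scores and 6 to 8 of 93 or 94 under each other alternative; the cause was not tested. Levels that moved by over 1.5 times included Mmp15 in normal cholangiocyte-like cells (0.372 in place of 1.23), Mmp27 in normal Kupffer-cell-like cells (0.129 in place of 0.350), Mmp13 in fibrosis Kupffer-cell-like cells (1.89 in place of 0.629), Mmp19 in fibrosis hepatocyte-like cells (0.391 in place of 0.668) and Adamts14 in normal NK/T-cell-like cells (0.489 in place of 0.262), and Mmp7 had 0 UMIs in normal cholangiocyte-like cells. The LSEC-like ratio of Adamtsl2 went from 9.54 to 4.47, and in Kupffer-cell-like and macrophage-like cells that of Timp2 from 2.04 to 1.86 and that of Adam15 from 4.53 to 6.97. With all deposited cells HSC/MF-like cells had 19 members higher and 4 lower, without Adamts5 and Adam19 (1.83), and a resolution of 1.2 took Adamts15, Adamtsl2, Adam19 and Adamts5 to between 1.83 and 1.98. The other alternatives gave 40 to 45 carried members in normal and all gave 32 to 45 in fibrosis. Without the 5% of cells with the highest Scrublet scores and clustered again, 17 of 62 normal HSC/MF-like cells kept their name and no comparison could be made; with the classes kept as they were (added after seeing the data) HSC/MF-like cells had 22 members past 2 times, 19 higher and 3 lower. Without the 1 cell with most UMIs of a gene, 49 ratios stayed within their interval and 3 moved beyond it, Adam22, Mmp3 and Adamtsl2 in PF-like cells. Among the 49, Adam12 went from 3.69 to 5.61 and Adamts14 from 3.85 to 9.86 in PF-like cells, and Mmp19 from 5.16 to 14.7 and Adamts7 from 2.67 to 4.82 in HSC/MF-like cells. Adamts4 and Mmp12 in PF-like cells and Adamtsl1 in HSC/MF-like cells then had 0 normal UMIs and no ratio, and the low Mmp2 and Mmp9 in Kupffer-cell-like and macrophage-like cells, Adam11 in HSC/MF-like cells and Adamts19 and Adamts6 in PF-like cells fell below the level at which members were compared. Clustering resolutions of 0.4 and 1.2 took the HSC/MF-like ratio of Adamtsl1 from 25.6 to 9.04 and 16.9, and 0.4 that of Adamts4 from 6.14 to 3.004. No paired analysis was possible because each group is 1 library and no replicate number is shared in a comparison with a test. Depth limits the members under 20 UMIs and the normal HSC/MF-like and PF-like classes. For a gene at or below its lymphoid level the part of free RNA was not tested.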
